A study of Mus musculus with 6 samples.

Results

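The replication-dependent histone genes were described in RNA of cells sorted as pericytes from mouse skeletal muscle, taken 3 h after electrical stimulation or from sham mice. They were taken as the genes whose symbols start with Hist1h, Hist2h, Hist3h or Hist4h and whose estimated counts, summed over all 6 libraries, reached at least 60. The rule gave 64 of the 53715 genes in the deposited gene table, made up of 6 H1, 16 H2a, 18 H2b, 11 H3 and 13 H4 genes. They were thus selected on the summed level, and the group of a library did not enter. Among the 6 histone genes left out, Hist1h2aj had a summed count of 54.2 and Hist2h2aa1 one of 23.4, and just inside the limit stood Hist2h3c2 with 91.4 and Hist3h2bb-ps with 95.7. All 64 genes passed the filter on low counts, as did 26559 genes in all.

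Histones H2A, H2B, H3 and H4 form the protein core around which DNA is wound, and H1, the linker histone, binds the DNA between cores. Most of their messages are made in S phase from clustered, mostly intronless gene copies and end in a conserved stem-loop in place of a poly(A) tail. The stem-loop binding protein, encoded by Slbp, and the U7 ribonucleoprotein process that end, so these messages are poorly seen in poly(A)-selected libraries and are visible in total RNA.

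Both groups were wild-type male C57BL/6J mice aged 14 weeks, with 3 mice each and 1 library per mouse according to the stated group sizes. In the stimulated group the crural muscles went through 40 contractions, 20 eccentric and 20 concentric, within about 10 minutes, and the gastrocnemius-soleus complex was taken 3 h later. The sham group received no stimulation. In both groups the sort kept cells with CD146 and without CD45 or CD31, and total RNA was sequenced after a stranded low-input preparation.

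Libraries held 17520338 to 23709220 estimated reads, and the 64 histone genes took 0.0567 to 0.116% of them. The sort was checked against its own antigens. Ptprc, which encodes CD45, stood at 1027, 1035 and 989 CPM (counts scaled to library size with TMM factors) in stimulated and at 814, 194 and 863 CPM in sham libraries. Mcam, which encodes CD146, stood at 24.3, 30.8 and 54.1 CPM after stimulation and at 39.1, 105 and 63.96 CPM in sham. Pecam1, which encodes CD31, stood at 384, 429 and 577 CPM against 524, 1277 and 751 CPM, with a log2 fold change of -0.88 (SE 0.37, unadjusted p = 0.0421, edgeR adjusted p = 0.694). RNA of the genes for CD45 and CD31, which the sort was set to exclude, was present in all 6 libraries, and a lower share of one cell type and less RNA per cell cannot be told apart in such bulk samples. Sham replicate 2 stood apart from the other 5 libraries. Its mean over 14 leukocyte markers was 4.20 log2 CPM against 6.50 to 7.06 elsewhere, and its mean over 12 endothelial markers was 8.99 against 7.02 to 8.29. Its means over 10 macrophage markers, 5.81 against 3.997 to 5.15, and 12 pericyte markers, 4.87 against 3.21 to 4.21, were the highest of the 6.

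The 3 prime stem-loop is the feature that sets these messages apart, so its variants among the members are shown here with 5 bases on each side, from GENCODE release 21 (GRCm38). Capitals mark the 16 bases of the stem-loop, found as GGNNCTTTTNAGNNCC on the transcript strand. Hist1h1c lies at chr13:23739507-23739532 on the plus strand, Hist1h2ag at chr13:22042478-22042503 (minus), Hist1h2bk at chr13:22036295-22036320 (plus), Hist2h2ac at chr3:96220413-96220438 (minus), Hist1h4c at chr13:23698084-23698109 (minus), Hist1h4b at chr13:23757361-23757386 (plus) and Hist2h4 at chr3:96262934-96262959 (minus).
Hist1h1c: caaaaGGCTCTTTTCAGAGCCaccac
Hist1h2ag: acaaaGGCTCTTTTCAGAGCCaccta
Hist1h2bk: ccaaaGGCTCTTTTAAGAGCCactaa
Hist2h2ac: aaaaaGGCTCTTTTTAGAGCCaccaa
Hist1h4c: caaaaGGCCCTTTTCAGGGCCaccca
Hist1h4b: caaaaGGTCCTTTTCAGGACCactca
Hist2h4: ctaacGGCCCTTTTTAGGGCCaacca

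A match was found in the main annotated transcript of 41 of the 64 members. The form shown for Hist1h1c was carried by 23 of them, in H1, H2a, H2b and H3 genes, and the form of Hist1h2bk by 6. The GGCCC and GGTCC stems were found in H4 genes, in 7 members as in Hist1h4c, 2 as in Hist1h4b and 2 as in Hist2h4. In 20 members the annotation ended within 100 bases after the stem-loop, the arrangement of the short replication-dependent message. In 21 the annotated transcript ran on past it, by 840 bases in Hist1h1c and 1257 bases in Hist2h4. The other 23 gave no match, which says only that these letters are not in the annotated transcript: the Hist1h4k transcript, for instance, is annotated with 312 bases.

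Of the 64 genes, 52 belong to the Hist1 cluster on chromosome 13 (21715763 to 23764406), 8 to Hist2 on chromosome 3, 3 to Hist3 on chromosome 11 and 1, Hist4h4, lies on chromosome 6. In 61 the main transcript has 1 exon, and 1 member, Hist3h2bb-ps, is a pseudogene. Copies resemble each other closely. The median member had 42.6% of its 31-base words in no other gene's transcripts, 37 members had under 50%, and Hist1h2bq, Hist1h2br and Hist2h2aa2 had 0%, counted in the main transcript. Reads of such copies are divided by estimation, so single values of these genes are uncertain and sums over a histone type are given beside them.

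Levels between genes were compared per length, in TPM, a transcript abundance normalised for length and averaged over the 6 libraries. The H2a genes summed to 23.3 TPM, H4 to 20.99, H2b to 15.2, H3 to 11.1 and H1 to 6.40. Hist2h2aa2 led with 10.0 TPM, a value that covers copies of identical sequence. Hist1h4k followed with 9.33 TPM, on an annotated transcript of 312 bases. Its effective length, by which TPM divides the reads, was 63 bases in each library, and its 9.33 TPM is part of the H4 sum. Hist1h1d, in contrast, is annotated with 7425 bases and had 0.240 TPM. The order of the types by TPM thus depends on annotated lengths. Hist1h1c, at 3.67 TPM, led the linker histones. Protein-coding transcripts held 1.26 to 2.44% of TPM, so a TPM sum also moves with the share of other RNA in a library, and TPM is used here mainly for ranks and shares within libraries.

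The summed CPM of each histone type did not separate the groups. All members together reached 705, 884 and 740 CPM in stimulated and 739, 538 and 1328 CPM in sham libraries. The sham group thus held both the lowest and the highest library, and all 3 stimulated libraries lay between them. Summed H1 stood at 182, 231 and 199 CPM after stimulation and 228, 172 and 463 CPM in sham, a log2 ratio of means of -0.50. Summed H2a stood at 193, 260 and 218 CPM against 195, 144 and 349 CPM, a log2 ratio of -0.04. These ratios were smaller than the pooled SD of the log2 sums, 0.53 for H1 and 0.48 for H2a.

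Summed H2b stood at 152, 149 and 134 CPM after stimulation and 129, 71.8 and 185 CPM in sham, with a log2 ratio of 0.17. Summed H3 stood at 66.2, 95.8 and 73.6 CPM against 75.5, 32.4 and 138 CPM, with a log2 ratio of -0.06. Summed H4 stood at 112, 149 and 115 CPM against 111, 117 and 193 CPM, with a log2 ratio of -0.17. In each of the 5 types the range of the sham values enclosed all 3 stimulated ones. The highest sham library exceeded the lowest by 4.25-fold in H3 and 2.68-fold in H1, while the stimulated libraries spanned 1.136-fold (H2b) to 1.45-fold (H3). Leaving out 1 library moved each ratio across 0, from -0.76 to 0.043 for H1, -0.28 to 0.41 for H2a, -0.12 to 0.54 for H2b, -0.44 to 0.56 for H3 and -0.31 to 0.14 for H4.

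Sums of deposited TPM gave lower ratios, at -0.69 for H1, -0.30 for H2a, -0.06 for H2b, -0.25 for H3 and -0.45 for H4. In that unit the groups did not overlap for H1, at 4.82 to 4.97 against 6.78 to 9.07 TPM, for H2a, at 19.4 to 22.1 against 22.2 to 28.2 TPM, or for H4, at 15.9 to 21.004 against 21.5 to 26.7 TPM. Protein-coding transcripts as a whole took 1.26 to 1.79% of TPM after stimulation and 1.41 to 2.44% in sham. Relative to the protein-coding TPM of the library the ratios were -0.42, -0.01, 0.21, -0.0054 and -0.14 in the same order, and the groups overlapped in each of the 5 types.

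**Figure D1:**
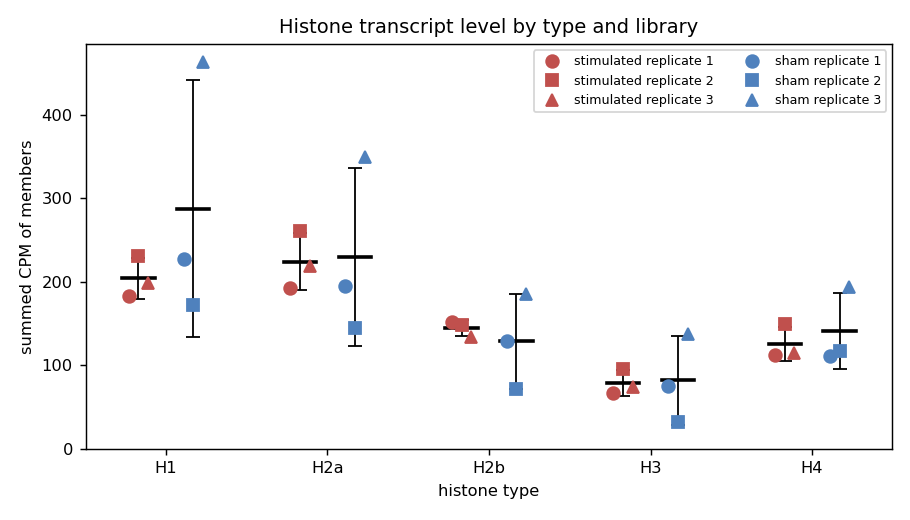
Summed CPM of the members of each histone type (vertical axis) for each library; colours give the group, symbols the replicate, black lines the mean and bars the SD (n = 3). Sham replicate 3 is highest in each of the 5 types, at 463 CPM for H1, and the stimulated libraries cluster more tightly than the sham libraries.

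No member passed the test of stimulated against sham, edgeR's quasi-likelihood test with Benjamini-Hochberg adjustment over all 26559 genes, in which 0% of genes passed at an adjusted p of 0.05. limma voom called 0 members too, and DESeq2 called 0 members and 0.855% of genes. DESeq2 gave 6724 of the 26559 genes no adjusted p. These are counted as not called, and any members among them could not be called. At an unadjusted p of 0.05 edgeR picked out 2 of 64 members (7.05% of all genes), DESeq2 3 (7.69% of all genes) and voom 1 (7.04%). Groups did not overlap for 3 members that were higher after stimulation (6.12% of all genes) and 2 that were lower (5.89%), shares no larger than those over all genes. The log2 fold change was above 0 in 40 of 64 members (48.0% of all genes), with a median of 0.10 against -0.02 over all genes. Both measures depended on single sham libraries. Without sham replicate 2 the count fell to 20 and the median was -0.22, against 0.0081 over all genes. Without sham replicate 3 the count was 56 and the median 0.47, against -0.072 over all genes. In that refit 11 members had an unadjusted p under 0.05. The shares over all genes in these refits are not given here, so the refit counts stand without a background.

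**Figure D2:**
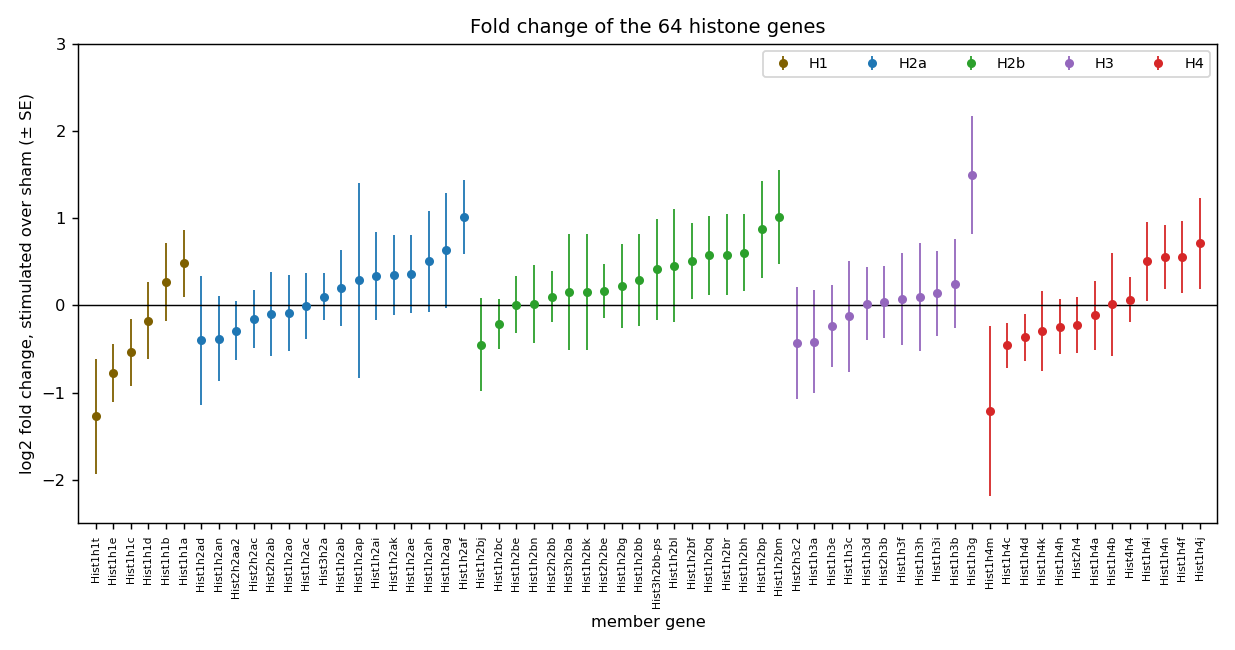
Log2 fold change of stimulated over sham with its SE (vertical axis) for each of the 64 members, ordered within H1, H2a, H2b, H3 and H4. Of the 18 H2b genes 16 lie above 0, of the 6 H1 genes 2 (48.0% of all genes), and no member passed the adjusted test.

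Among the linker histones, 2 of 6 had a log2 fold change above 0 (48.0% of all genes). Hist1h1c (ENSMUSG00000036181.2, chromosome 13, 23738808 to 23740367, plus strand), a broadly expressed linker histone, stood at 104, 130 and 105 CPM after stimulation and at 137, 88.7 and 268 CPM in sham. Its log2 fold change was -0.54 (SE 0.39, edgeR adjusted p = 0.889), and the sham values enclosed the stimulated ones. Hist1h1e (chromosome 13, 23620629 to 23622558), another somatic linker histone, stood at 38.7, 52.9 and 46.5 CPM after stimulation and at 54.4, 61.4 and 121 CPM in sham. The groups did not overlap, with a log2 fold change of -0.78 (SE 0.34, unadjusted p = 0.0455, edgeR adjusted p = 0.700), and stimulated replicate 2 lay just under sham replicate 1. Without sham replicate 3 the log2 fold change was -0.32.

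The other linker histones were lower in level. Hist1h1d stood at 20.6 to 28.6 CPM after stimulation and at 12.6 to 48.7 CPM in sham. Hist1h1a stood at 11.3 to 12.8 against 4.82 to 14.0 CPM and Hist1h1b at 5.48 to 10.5 against 3.09 to 10.1 CPM, each with the lowest value in sham replicate 2. Hist1h1t, the linker histone of the testis, stood at 0.474, 0.542 and 0.530 CPM after stimulation and at 1.55, 1.84 and 0.368 CPM in sham, with a log2 fold change of -1.27 (SE 0.66, edgeR adjusted p = 0.770). Its mean TPM of 0.0518 was the lowest of the H1 genes, and the groups overlapped through sham replicate 3.

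Of the 16 H2a genes, 9 had a log2 fold change above 0 (48.0% of all genes). Hist2h2aa2 (chromosome 3, 96239749 to 96240276, minus strand), a core histone copy of the Hist2 cluster, stood at 66.3, 96.5 and 67.1 CPM after stimulation and 70.9, 68.4 and 142 CPM in sham. Sham replicate 3 was the highest library and the groups overlapped. Hist2h2ac, in the same cluster, stood at 18.1 to 23.4 CPM against 17.2 to 36.2 CPM. Hist1h2af (chromosome 13, 23533906 to 23534304) stood at 6.48, 7.14 and 6.19 CPM after stimulation and at 4.98, 1.52 and 3.31 CPM in sham. It had the smallest unadjusted p of the members, with a log2 fold change of 1.01 (SE 0.42, unadjusted p = 0.0412, edgeR adjusted p = 0.691), and the groups did not overlap. Without sham replicate 2 the log2 fold change was 0.68. As 14.1% of its 31-base words are its own, reads of other copies could move this value.

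Of the 18 H2b genes, 16 had a log2 fold change above 0 (48.0% of all genes), with a median of 0.26. None of the 18 had an unadjusted p under 0.05. Sham replicate 2 was the lowest library for 16 of the 18, and without it the log2 ratio of summed H2b was -0.12. Hist2h2bb, the H2b gene of highest TPM, stood at 15.5, 18.1 and 15.8 CPM after stimulation and at 16.1, 10.1 and 19.8 CPM in sham. Hist1h2bm stood at 2.84, 2.168 and 2.92 CPM against 2.00, 0.433 and 1.47 CPM, with a log2 fold change of 1.01 (SE 0.54, edgeR adjusted p = 0.778). Hist1h2bp stood at 2.69, 1.33 and 1.33 CPM against 1.20, 0.433 and 1.26 CPM, with a log2 fold change of 0.87 (SE 0.55, edgeR adjusted p = 0.848). In both genes the groups did not overlap and sham replicate 2 was the lowest library. The sum of Hist1h2bq and Hist1h2br, whose main transcripts have no 31-base word of their own, was 18.3, 16.1 and 25.4 CPM after stimulation and 10.9, 6.17 and 22.9 CPM in sham.

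Of the 11 H3 genes, 7 had a log2 fold change above 0 (48.0% of all genes). Hist1h3e, the H3 gene of highest TPM, stood at 19.2, 30.4 and 18.6 CPM after stimulation and 21.9, 11.3 and 47.2 CPM in sham. Hist1h3a stood at 6.36 to 11.1 CPM against 3.09 to 21.9 CPM, and Hist1h3i at 6.01 to 8.77 against 2.27 to 10.3 CPM. In all 3 the stimulated values fell inside the sham range. Hist1h3g, a gene of low level, stood at 0.896, 1.72 and 2.65 CPM after stimulation and at 1.20, 0.325 and 0.315 CPM in sham. It had the highest fold change of the members, with a log2 value of 1.495 (SE 0.68, unadjusted p = 0.0545, edgeR adjusted p = 0.713), and the groups overlapped. Leaving out 1 library gave 1.08 to 2.44, the highest without sham replicate 1.

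Of the 13 H4 genes, 6 had a log2 fold change above 0 (48.0% of all genes). Hist1h4d, with 85.3% words of its own, stood at 27.1, 30.2 and 31.9 CPM after stimulation and 27.4, 37.1 and 50.5 CPM in sham. The log2 fold change was -0.37 (SE 0.27). Hist1h4c stood at 8.80, 10.3 and 10.1 CPM against 11.2, 13.1 and 15.8 CPM, with a log2 fold change of -0.46 (SE 0.26, edgeR adjusted p = 0.806) and groups that did not overlap. Hist1h4k stood at 8.64, 17.3 and 8.93 CPM against 8.93, 9.32 and 24.5 CPM. Hist1h4n stood at 12.0, 12.8 and 10.7 CPM against 4.80, 6.93 and 12.4 CPM, with a log2 fold change of 0.56 (SE 0.36). Its near-copy Hist1h4m had 0.262 estimated reads in stimulated replicate 1, which rounded to 0, and stood at 2.60 to 7.56 CPM elsewhere. Together these 2 genes reached 12.0, 16.5 and 13.6 CPM after stimulation and 9.91, 9.53 and 20.0 CPM in sham.

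In CPM the 2 extreme sham libraries were extreme across most members. Sham replicate 2 was the lowest library for 47 of 64 members (21.4% of all genes) and sham replicate 3 the highest for 42 of 64 (14.4% of all genes). Against the median of the other 5 libraries, the median member stood at -1.16 on the log2 scale in sham replicate 2 and at 0.61 in sham replicate 3, where the median of all genes was 0.10 and -0.05. In sham replicate 2, 35 of 64 members were more than 1 on the log2 scale below that median (10.7% of all genes). Hist1h2ag, one of the short stem-loop messages shown above, was the furthest, at 0.921 CPM against 3.78 to 9.14 CPM elsewhere. Hist1h1e, at 61.4 CPM, and Hist1h4d, at 37.1 CPM, were among the members that were not lower there.

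The shortfall in CPM in sham replicate 2 varied with the annotated message, the histone type, the gene cluster and the share of own sequence. The median deviation was -1.52 for the 20 members whose transcript ends soon after the stem-loop, -1.37 for the 23 with no match and -0.61 for the 21 whose transcript runs on. It was -1.43 for the 44 members with a longest transcript of at most 800 bases and -0.53 for the 20 longer ones. The 474 other protein-coding genes with transcripts that short had a median of 0.04 in that library. By type the median was -1.50 for H2b, -1.46 for H3, -1.19 for H2a, -0.74 for H1 and -0.36 for H4. By cluster the median was -1.37 for the 52 Hist1 genes, -0.25 for the 8 Hist2 genes, -0.82 for the 3 Hist3 genes and -0.12 for Hist4h4. It was -1.53 for the 37 members with under 50% words of their own and -0.57 for the other 27, and 18 of the 20 short stem-loop messages are among the former. Within the members with no match the median was -0.59 for the 8 with at least 50% words of their own and -1.53 for the 15 with fewer. Within those that run on it was -0.57 for 17 and -1.18 for 4. The median deviation was larger with more shared sequence inside both of these forms, but those 4 genes ran from -1.58 to 1.35. Only 2 short stem-loop messages had at least 50% words of their own, with a median of -0.92. The parts of shared sequence and of the low leukocyte marker level of this library in the deviation were not tested.

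In sham replicate 3 the 3 message forms stood close together, at 0.64, 0.49 and 0.63 for transcripts ending at the stem-loop, without a match and running on. The 474 other short protein-coding genes had a median of 0.23 there. This library and stimulated replicate 2, the pair with the highest summed histone CPM, also had the shortest median effective lengths of transcripts of at least 1000 bases, 2019 and 2063 bases against 2245 to 2386 in the others. The part of this measure in the histone levels was not tested.

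**Figure D3:**
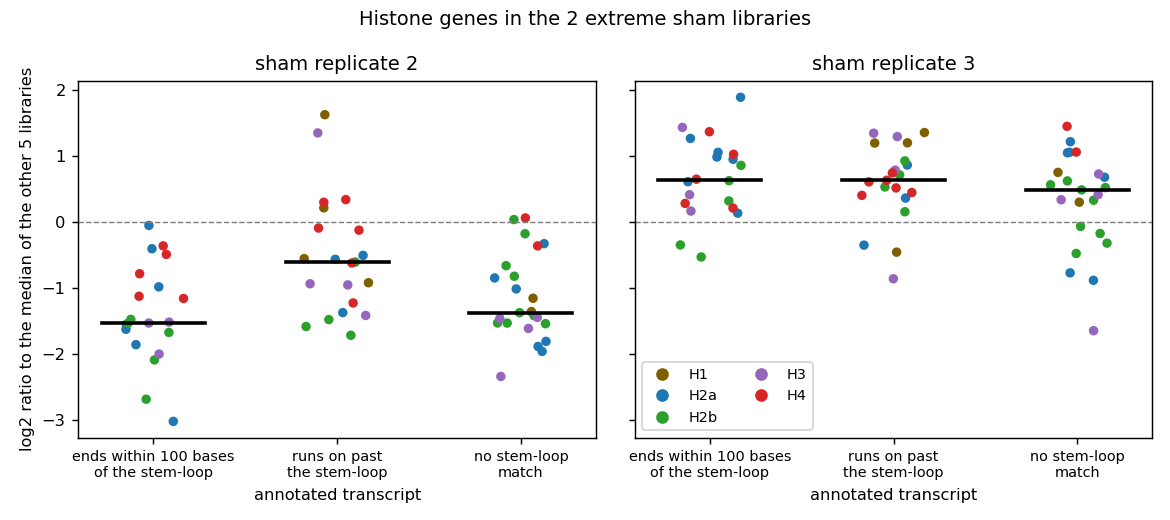
Log2 ratio of each member's CPM to the median of the other 5 libraries (vertical axis) in sham replicate 2 (left) and sham replicate 3 (right), by the form of the annotated transcript; points are genes coloured by histone type and black lines are medians. In sham replicate 2 the medians are -1.52, -0.61 and -1.37 from left to right, and in sham replicate 3 they are 0.64, 0.63 and 0.49.

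Many H2a and H2b genes sit head to head. Among the members there were 12 pairs on opposite strands with starts 172 to 301 bases apart, and each pair joined an H2a with an H2b gene. In 7 of 12 pairs both genes had the same sign of the log2 fold change. Over all members 9 of 16 H2a and 16 of 18 H2b genes were above 0, so the 7 of 12 cannot be read as a trait of the pairs. In 11 of 12 both lay below the other libraries' median in sham replicate 2. The highest deviation there was -0.053 over all 16 H2a and 0.036 over all 18 H2b members, so this count tells nothing about the pairs as such. For Hist1h2ae and Hist1h2bg, whose starts are separated by 175 bases, the summed level was 26.9, 22.0 and 20.9 CPM after stimulation and 18.8, 7.37 and 32.9 CPM in sham. The sham values again enclosed the stimulated ones.

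The promoters of Hist1h2bg, of the leading linker histone Hist1h1c and of the H4 gene Hist1h4d are printed to show the elements that histone promoters of different types carry. Each window runs from 250 bases before to 50 bases after the RefSeq start (GRCm38.p6), and that of Hist1h2bg holds the whole stretch between the paired starts. Capitals mark the CCAAT box (CCAAT), the TATA box (TATAAA) and the octamer (ATTTGCAT), each searched on both strands. The windows are chr13:23738557-23738856, chr13:23571150-23571449 and chr13:23581318-23581617, all on the plus strand.
Hist1h1c: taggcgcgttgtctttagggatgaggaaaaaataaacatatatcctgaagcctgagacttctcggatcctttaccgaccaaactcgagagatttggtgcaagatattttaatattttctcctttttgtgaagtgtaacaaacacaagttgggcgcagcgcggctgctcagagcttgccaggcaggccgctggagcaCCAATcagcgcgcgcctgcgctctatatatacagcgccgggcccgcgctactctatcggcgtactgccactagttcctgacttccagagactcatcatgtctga
Hist1h2bg: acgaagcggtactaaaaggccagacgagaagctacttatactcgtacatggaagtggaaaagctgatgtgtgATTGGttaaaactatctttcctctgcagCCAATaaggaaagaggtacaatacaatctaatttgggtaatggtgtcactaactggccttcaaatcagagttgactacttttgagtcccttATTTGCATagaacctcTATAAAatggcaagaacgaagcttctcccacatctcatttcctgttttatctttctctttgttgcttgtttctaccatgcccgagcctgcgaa
Hist1h4d: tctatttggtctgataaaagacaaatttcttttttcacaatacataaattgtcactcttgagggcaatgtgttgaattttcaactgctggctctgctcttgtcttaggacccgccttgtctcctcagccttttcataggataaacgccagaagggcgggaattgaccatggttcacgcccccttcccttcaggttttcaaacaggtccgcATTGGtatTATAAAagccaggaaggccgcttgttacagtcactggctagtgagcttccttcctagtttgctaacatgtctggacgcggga

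RefSeq windows were matched for 57 of the 64 members. CCAAT was found in all 45 matched H1, H2a, H2b and H3 windows and in 3 of 12 H4 windows, against 37.4% of 32851 promoters in the table. TATAAA was found in 31 of 57 member windows (54.4%), with 8 of 12 in H4, against 13.6% of all promoters. The octamer was found in 6 of 16 H2a and 5 of 15 H2b windows and in 0 of the H1, H3 and H4 windows, against 1.74% of all promoters. A head-to-head pair shares much of its window, so the H2a and H2b counts are not independent. These matches describe the sequence and no binding was measured.

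Within the histone RNA of a library, the make-up by type was also compared, after the values had been seen and so with no test. H1 genes took 25.9, 26.1 and 26.9% of the members' summed count in stimulated and 30.8, 32.0 and 34.9% in sham libraries, with a gap between the groups. Shares from summed transcript reads (25.9 to 27.7% against 29.9 to 35.9%) and from TPM (6.75 to 7.51% against 8.65 to 9.60%) did not overlap either. The difference lay in Hist1h1c, at 14.2 to 14.8% against 16.5 to 20.2%, and Hist1h1e, at 5.49 to 6.29% against 7.36 to 11.4%. With both genes left out the remaining H1 share was 6.78 to 8.05% against 5.75 to 7.79%, and the groups overlapped. H2a took 27.3 to 29.5% after stimulation and 26.3 to 26.8% in sham, without overlap, but its shares overlapped in summed transcript reads and in TPM. H2b, H3 and H4 shares overlapped, and sham replicate 2 had the lowest H3 share (6.02%) and the highest H4 share (21.8%).

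**Figure D4:**
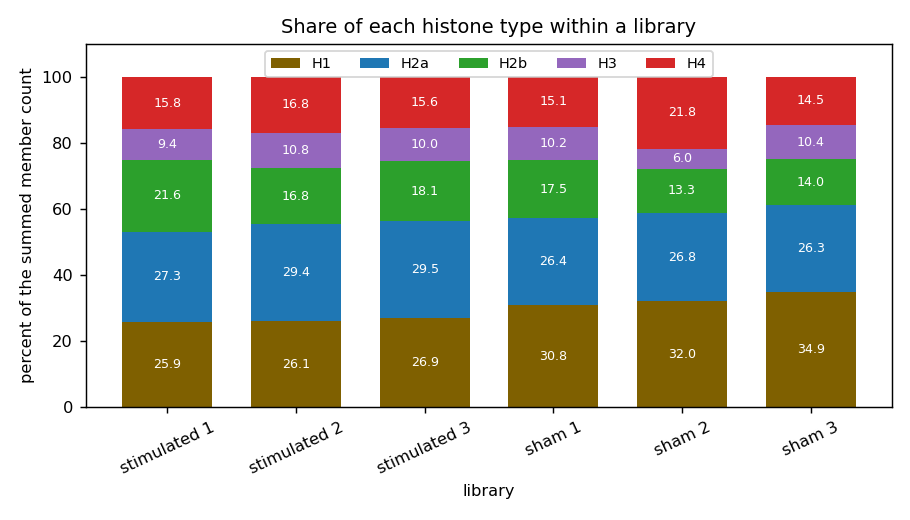
Percent of the members' summed estimated count (vertical axis) taken by each histone type in each library, as stacked bars with the values printed. H1 is at 25.9 to 26.9% in the stimulated and 30.8 to 34.9% in the sham libraries.

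Genes that serve histone supply were described beside the members. Of 12 tested replication-independent variants, which are also made outside S phase, 0 passed the adjusted edgeR test. At an unadjusted p under 0.05, 3 were lower and 0 were higher (4.41 and 2.64% of all genes). H1f0, the linker histone of resting and differentiated cells, stood at 15.96, 19.5 and 20.6 CPM after stimulation and at 26.03, 64.8 and 41.6 CPM in sham. Its log2 fold change was -1.24 (SE 0.34, unadjusted p = 0.00525, edgeR adjusted p = 0.516) and the groups did not overlap. H2afv, a close relative of H2afz, had -0.63 (SE 0.28, edgeR adjusted p = 0.708), again without overlap. H1foo, the oocyte linker histone, had -3.13 (SE 0.75, edgeR adjusted p = 0.424) at 0.211 to 0.354 CPM against 0.578 to 4.44 CPM. H3f3a, H3f3b, H2afz, H2afx, H2afy and Cenpa, which encode the other main variants, had values between -0.46 (H3f3b) and 0.36 (H2afy), all with overlapping groups.

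The processing factors showed no member past the adjusted test among 20 tested, and 1 was higher at an unadjusted p under 0.05 (2.64% of all genes). That gene was Snrpe, a core protein of small nuclear ribonucleoproteins, with a log2 fold change of 1.15 (SE 0.49, edgeR adjusted p = 0.695) and overlapping groups. Slbp stood at 47.4, 52.7 and 50.6 CPM after stimulation and at 47.2, 39.3 and 60.9 CPM in sham. The U7 component Lsm11 had -0.11 (SE 0.26), and Casp8ap2, which is needed for histone message processing, 0.38 (SE 0.33). Of 12 genes of histone transcription 0 passed at either level. Npat, the coactivator of histone loci, had -0.03 (SE 0.29), Ccne2, the cyclin that acts with its kinase, 0.27 (SE 0.36), and the octamer factor Pou2f1 0.55 (SE 0.33). Of 20 chaperones 0 passed the adjusted test, and 1 was higher at an unadjusted p under 0.05 (2.64% of all genes). It was Asf1b, an H3 and H4 chaperone of dividing cells (log2 fold change 0.96, SE 0.34, edgeR unadjusted p = 0.0210, adjusted p = 0.637).

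Cell cycle genes gave the proliferation background. Of 31 S phase genes 22 had a log2 fold change above 0 (48.0% of all genes), 0 passed the adjusted test, and Pole, the catalytic subunit of DNA polymerase epsilon, was the 1 that was higher at an unadjusted p under 0.05 (2.64% of all genes, log2 fold change 0.75, SE 0.28, edgeR adjusted p = 0.647). Pcna, the polymerase clamp, stood at 58.6 to 76.5 CPM after stimulation and at 50.3 to 81.8 CPM in sham. The log2 fold change was 0.71 (SE 0.40) for the helicase subunit Mcm2 and -0.02 (SE 0.32) for the ribonucleotide reductase subunit Rrm2. Of 25 G2 and mitosis genes 19 were above 0 (48.0% of all genes), and 0 passed the adjusted test. The mitotic kinase Plk1 was the 1 that was higher at an unadjusted p under 0.05 (2.64% of all genes). Its log2 fold change was 1.10 (SE 0.42, edgeR unadjusted p = 0.0292, adjusted p = 0.668). Mki67, a marker of cycling cells, stood at 45.6, 49.9 and 52.6 CPM against 59.2, 18.04 and 44.0 CPM. Top2a, which untangles replicated DNA, stood at 30.4, 30.9 and 29.1 CPM against 33.7, 7.20 and 16.96 CPM.

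Sham replicate 2 was thus the lowest library for Mki67 and Top2a as well as for most histone genes. Its list mean was 3.74 log2 CPM for S phase genes against 4.03 to 4.28 elsewhere and 2.26 for G2 and mitosis genes against 2.58 to 3.10. Sham replicate 3, the library with the highest histone sum, had 4.26 for S phase genes, inside the range of the stimulated libraries, and 2.58 for G2 and mitosis genes, below each of the 3 stimulated libraries. The groups did not overlap for endothelial markers, at 7.02 to 7.53 log2 CPM after stimulation and 7.66 to 8.99 in sham, for leukocyte markers, at 6.81 to 7.06 against 4.20 to 6.67, or for neutrophil markers, at 3.61 to 4.19 against 2.29 to 2.69. At an unadjusted p under 0.05, 10 of 12 endothelial and 2 of 12 pericyte markers were lower (4.41% of all genes), 4 of 14 leukocyte and 10 of 11 tested neutrophil markers were higher (2.64% of all genes), and 0 passed the adjusted edgeR test. Of the pericyte markers 11 of 12 had a log2 fold change below 0. Summed levels of endothelial, leukocyte and neutrophil markers were 2206 to 3285 against 3580 to 8995 CPM, 2891 to 3468 against 482 to 3581 CPM and 163 to 233 against 62.4 to 79.2 CPM. The part of these cell type markers in the histone values was not tested.

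**Figure D5:**
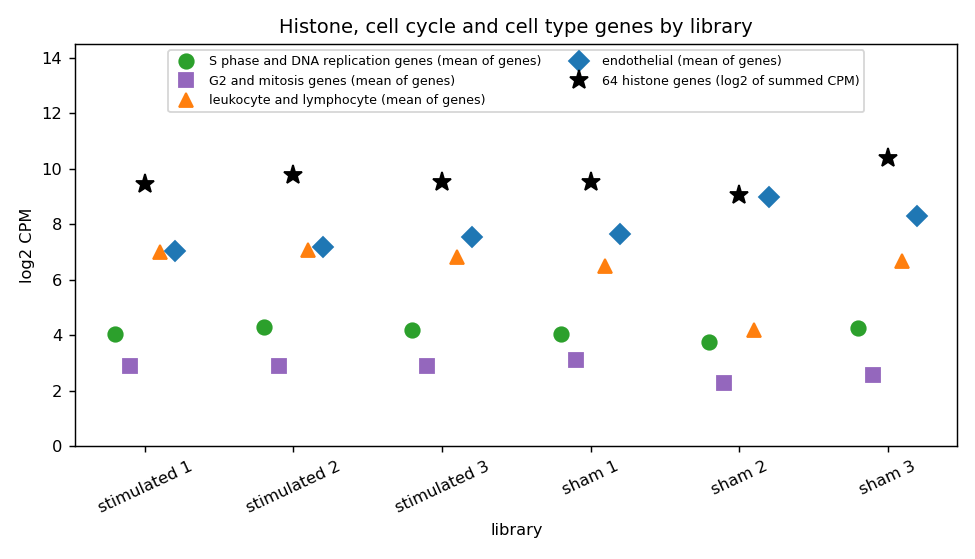
Level per library (horizontal axis) in log2 CPM: the log2 of the summed CPM of the 64 histone genes, and the mean log2 CPM of S phase, G2 and mitosis, leukocyte and endothelial genes. Sham replicate 2 is lowest for the histone sum, for both cell cycle lists and for leukocyte genes (4.20), and highest for endothelial genes (8.99).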

How the data were processed

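Estimated counts per gene were deposited for all libraries in 1 table, and per library the authors gave estimated counts and TPM of transcripts, per the file headers. Per the submitters' processing notes, GRCm38, edgeR, Salmon 0.8.2, R 3.5.1, Trimmomatic 0.36 and bcl2fastq 2.17.1.14 were used. Gene values divided by TPM, each library scaled by its median, were constant within 1% in 100% of 14096 genes with a TPM above 0.1 in all libraries, so the gene values are not sums of reads.

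Estimated counts were rounded, filtered with filterByExpr (minimum count 10, total 15), scaled by TMM and tested with edgeR 4.0.16 (robust quasi-likelihood, R 4.3.3) on all genes, with no other term. Adjusted p-values are Benjamini-Hochberg over all genes. An exact permutation of 3 against 3 libraries cannot go below p = 0.1 and was not used. The SE is the log2 fold change divided by the square root of F. Deviations of a library add 0.1 CPM, and list means add 1 CPM, before the log. The fit was tested on simulated data with known changes.

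Named were, per type, the 3 members of highest TPM and the 2 of smallest p, the 5 of smallest p in each direction, all H1 genes and fixed regulators, of which the text gives most. Members named outside that rule, for their copies, sequences, pairs or place at the limit, were chosen after their values were seen, as were the short-gene background and the shares. Members and lists were chosen with earlier results of these data known. Alternatives were DESeq2 1.42.0, limma 3.58.1 voom, RLE factors, other filters, a minimum summed count of 300, the replicate number as a block, summed transcript reads, TPM (also, added after the data were seen, relative to protein-coding TPM), a table without mitochondrial and ribosomal RNA, and omission of each library. Gene identifiers matched GENCODE release 21 for 99.8%.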

Additional observations from a re-analysis of the deposited data

How the results depend on the processing

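Of the 64 members, none was called under any of the tools, filters, scalings or omissions run. The count of genes called in the whole table was 0 in each direction. It was 74 higher and 153 lower with DESeq2, 44 and 65 without a filter, 3 higher with RLE factors, 1 higher with summed transcript reads and 0 to 1 higher with a library left out. Members at an unadjusted p of 0.05 numbered 1 with voom, RLE factors or mitochondrial and ribosomal RNA genes left out, 4 without a filter and 0 to 11 with a library left out. Members above 0 numbered 20 to 56 with a library left out. Apart from voom, the shares over all genes in these refits are not given here, so these member counts stand without a background. Without a filter 1 histone variant, H1foo, passed. The log2 ratio of summed H1 was -0.76 to 0.043 with a library left out, above 0 without sham replicate 3, and the ratios of the other 4 types crossed 0 too (H2a -0.28 to 0.41, H2b -0.12 to 0.54, H3 -0.44 to 0.56, H4 -0.31 to 0.14). The voom and block fits give no summed CPM, so the type ratios were not recomputed there.

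The labels do not say whether the replicate numbers mark pairs. The deviations of same-numbered libraries correlated at 0.33, -0.19 and 0.05, and those of differently numbered ones at -0.31 to 0.29. With 3 libraries per group these values cannot settle whether the libraries were paired. The fit with the replicate block called 0 members, gave 44 above 0 and a median of 0.20, and turned Hist1h1d to 0.030 and H3f3a to 0.0062.

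Several fold changes changed sign, none of them past the test. Rrm2 was 0.00032 with DESeq2, 0.031 without a filter and 0.34 with summed transcript reads. Hist1h1d was 0.039 and H3f3a 0.0067 with voom, Npat 0.020 without a filter, and with summed transcript reads Casp8ap2 was -0.086 and Hist1h2bn -0.11. The cause was not tested. With single libraries left out, log2 fold changes ran from -0.045 to 0.45 for Ccne2, -0.028 to 0.54 for Cenpa, -0.14 to 0.24 for H2afz, -0.29 to 0.25 for H3f3a, -0.061 to 0.77 for Hist1h1b, -0.84 to 0.019 for Hist1h1c, -0.52 to 0.54 for Hist1h1d, -0.038 to 0.93 for Hist1h2ak, -0.18 to 0.91 for Hist1h2bg, -0.36 to 0.42 for Hist1h2bn, -0.87 to 0.49 for Hist1h3a, -0.60 to 0.47 for Hist1h3e, -0.26 to 0.69 for Hist1h3i, -0.70 to 0.37 for Hist1h4k, -0.49 to 0.15 for Hist2h2aa2, -0.34 to 0.29 for Hist2h2ac, -0.12 to 0.34 for Hist2h2bb, -0.20 to 0.018 for Lsm11, -0.052 to 0.67 for Mki67, -0.31 to 0.14 for Npat, -0.062 to 0.31 for Pcna, -0.15 to 0.22 for Rrm2, -0.10 to 0.23 for Slbp.

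These libraries limit what can be seen: the common biological coefficient of variation was 0.398, and near-identical copies share reads. For a gene with sequence of its own, a count of 0 was taken to allow up to 3 counts, or 0.132 to 0.162 CPM. That limit does not hold for near-copies such as Hist1h4m, where a 0 comes from the division of shared reads by estimation.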
